A study of Mus musculus with 48 samples.

Results

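The 10 genes described here encode growth regulators and fetuins that hepatocytes release into the blood, or partners of such proteins: Igf1, Igfbp1, Igfbp2, Inhbe, Inhbc, Inhba, Fst, Fgf21, Ahsg and Fetub. They were chosen by symbol from the 37583 genes of the deposited expression table, and 9 of the 10 passed the filter on low values (17771 genes passed in all). Fgf21 did not pass. For the same genes, the binding of the liver transcription factors C/EBPα (encoded by Cebpa) and HNF4α (Hnf4a) was read from lists of peaks made by chromatin immunoprecipitation with sequencing (ChIP-seq).

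The mice were of an F1 cross (C57Bl6/CBA). ChIP-seq was done on wild-type liver at 5 stages, which were days 15.5 and 18.5 of gestation (E15.5, E18.5) and days 0.5, 14 and 60 of life (P0.5, P14, P60), with 2 replicates for each factor and stage. RNA was sequenced from 3 wild-type (WT) livers, 3 livers with both floxed Cebpa alleles and the Alfp-Cre transgene (C/EBPα knockout) and 2 livers with both floxed Hnf4a alleles and Alfp-Cre (HNF4α knockout). Alfp-Cre drives recombination in cells of the liver lineage, so blood, vessel and connective tissue cells of the same livers keep the targeted gene. The labels give no Cre to the WT group, so the presence of Cre and the loss of the factor cannot be told apart. Nothing in the labels ties the RNA replicates to separate litters, and the p-values measure the spread between these libraries. Both knockouts are compared with the same 3 WT libraries.

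The age of the RNA samples differs between the sources: a postnatal age of 60 days stands in the sample labels, while the text on the series names E18.5. Igf2, the growth factor that prevails over Igf1 before birth and is silenced in mouse liver in the weeks after birth, was at 106407 to 183035 normalized reads in WT. Igf1, which rises after birth under growth hormone, was at 396 to 486. Hepatocyte markers were led by Alb (albumin), and none of the 9 was at 0 throughout a group. Their summed level was 2713486 to 4244606 in WT, 323363 to 1193274 in the C/EBPα knockout and 850190 to 1357057 in the HNF4α knockout. In WT, Cebpa had 9999, 9594 and 5511 normalized reads, against 322, 419 and 998 in the C/EBPα knockout, a fall to 6.93% of the WT mean (adjusted p = 0.000413). In WT, Hnf4a had 9098, 4948 and 6718, against 1238 and 2444 in the HNF4α knockout, a fall to 26.6% (adjusted p = 0.0330, not reached in 6 of 16 alternative analyses, among them those without WT replicate 1, without WT replicate 3 and without HNF4α knockout replicate 1, with values up to 0.44). Hnf4a was also at 2492, 2530 and 4510 in the C/EBPα knockout, and Cebpa at 3886 and 4500 in the HNF4α knockout, below every WT library in both cases, but neither difference passed the test (adjusted p = 0.188 and 0.299). A pair of libraries stood apart. C/EBPα knockout replicate 3 had the most Cebpa RNA of its group, and HNF4α knockout replicate 1 held skeletal muscle RNA led by Acta1, with a summed level of 644832 for 12 muscle markers against 260 in replicate 2 and 94 to 204 in WT. Of the endothelial, erythroid, megakaryocyte and neutrophil markers, led by Eng, Hbb-b1, Pf4 and Ngp, none was called against WT in either knockout. Their summed levels did not all overlap with WT. Neutrophil markers summed to 102241 and 112593 in the HNF4α knockout, against 45383 to 67857 in WT and 34168 to 96310 in the C/EBPα knockout. Erythroid markers summed to 2389652 and 3771612, against 654151 to 2135056 and 772641 to 1366502, and endothelial markers to 12776 and 12895, against 8507 to 12316 and 6821 to 9895, in the same order. Each of these sums was thus above every WT library in both HNF4α knockout libraries. Megakaryocyte markers were at 2686 to 4414 in the C/EBPα knockout, below the 6009 to 7707 of WT, and at 7176 to 7887 in the HNF4α knockout. The part of these cells in the values of the 10 genes was not tested. Some of the results that rest on one of the pair of libraries above are given with and without it.

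Insulin-like growth factor 1 (IGF1) is made mainly by the liver in response to growth hormone and carries that signal to bone and muscle. In the blood most of it is held by binding proteins, of which IGFBP1 and IGFBP2 are liver products that limit its access to receptors. Activins are dimers of inhibin beta subunits, members of the TGF-beta family. The subunits encoded by Inhbc and Inhbe are nearly specific to the liver, Inhba encodes the subunit of activin A, and follistatin (Fst) traps activins outside the cell. FGF21 is a fasting hormone that acts on fat and brain through the co-receptor beta-klotho. Fetuin-A (Ahsg) and fetuin-B (Fetub) are plasma glycoproteins of the cystatin superfamily: fetuin-A keeps calcium phosphate in solution, and fetuin-B protects the egg coat from early hardening. C/EBPα is a leucine zipper factor and HNF4α a nuclear receptor, and both bind many genes of the mature hepatocyte.

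Promoters of 9 of the 10 genes were found in RefSeq (build GRCm38.p6). The 250 bases before the start are printed for the genes on which the results turn: both fetuins and both liver inhibin subunits, because the genes of each pair lie side by side and had unlike RNA values in the knockouts, together with Inhba and Igf1. Capitals mark matches, on either strand, to TTNCNNAA (the C/EBP half-match, which includes the stricter TTGCNNAA) or to CAAAGNNCA (an HNF4 half-match, which includes the stricter CAAAGTCCA). The windows are Ahsg chr16:22891765-22892014, Fetub chr16:22918132-22918381 (the first of its 2 RefSeq windows), Inhba chr13:16011601-16011850 and Igf1 chr10:87860861-87861110 on the plus strand, and Inhbe chr10:127351849-127352098 and Inhbc chr10:127370549-127370798 on the minus strand. The Inhba and Igf1 windows belong to starts that lie 7.6 and 2.8 kb after the first base of the RefSeq gene. The peaks are in build mm9, so they are not placed on these letters.
Ahsg: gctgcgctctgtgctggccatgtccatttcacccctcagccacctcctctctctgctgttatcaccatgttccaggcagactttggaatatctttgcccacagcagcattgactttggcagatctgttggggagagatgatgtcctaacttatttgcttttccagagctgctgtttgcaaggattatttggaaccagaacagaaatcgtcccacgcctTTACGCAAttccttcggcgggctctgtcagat
Fetub: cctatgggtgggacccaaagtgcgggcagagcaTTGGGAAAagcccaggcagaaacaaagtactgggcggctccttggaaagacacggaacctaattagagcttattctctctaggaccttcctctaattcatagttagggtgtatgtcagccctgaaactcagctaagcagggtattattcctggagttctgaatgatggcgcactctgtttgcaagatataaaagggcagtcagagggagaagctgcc
Inhba: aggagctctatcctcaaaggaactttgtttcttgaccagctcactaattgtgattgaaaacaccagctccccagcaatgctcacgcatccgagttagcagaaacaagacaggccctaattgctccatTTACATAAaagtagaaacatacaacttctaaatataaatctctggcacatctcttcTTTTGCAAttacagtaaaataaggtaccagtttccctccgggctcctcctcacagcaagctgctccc
Inhbe: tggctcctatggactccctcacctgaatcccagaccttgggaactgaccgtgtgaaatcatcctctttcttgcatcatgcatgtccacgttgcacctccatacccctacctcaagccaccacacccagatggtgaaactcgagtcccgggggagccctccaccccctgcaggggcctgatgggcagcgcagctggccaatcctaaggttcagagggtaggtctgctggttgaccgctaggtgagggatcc
Inhbc: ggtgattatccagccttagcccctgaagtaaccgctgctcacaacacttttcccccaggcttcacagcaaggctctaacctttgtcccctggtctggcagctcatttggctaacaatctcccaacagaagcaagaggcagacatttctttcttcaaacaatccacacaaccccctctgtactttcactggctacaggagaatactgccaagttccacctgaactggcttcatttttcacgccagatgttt
Igf1: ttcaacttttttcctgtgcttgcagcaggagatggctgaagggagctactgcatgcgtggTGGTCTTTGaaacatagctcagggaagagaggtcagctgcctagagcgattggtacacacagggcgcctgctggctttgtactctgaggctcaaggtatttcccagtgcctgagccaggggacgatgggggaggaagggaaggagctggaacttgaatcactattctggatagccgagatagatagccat

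The stricter C/EBP letters TTGCNNAA were in 2 of the 9 promoters, Ahsg and Inhba. They are in 9.56% of 32851 mouse promoter windows of the same length. In Ahsg the match, TTACGCAA, starts 32 bases before the transcript start, and in Inhba the match, TTTTGCAA, starts 67 bases before it. The looser TTNCNNAA was in 4 of the 9 (Ahsg, Inhba, Fetub and Igfbp2), against 36.8% of all windows. Fetub and Igfbp2 have 2 windows each, and a match in either was counted, while the shares are per window. The Igfbp2 match was in its second window alone, of a start 0.9 kb after the first base of the RefSeq gene. CAAAGTCCA was in 0 of the 9 (0.384% of all windows), and CAAAGNNCA was in Igf1 alone (5.49%), as TGGTCTTTG read on the minus strand 190 bases before the start. The printed windows of Inhbe and Inhbc held none of these letters, although Inhbe is the gene with the most constant peaks of C/EBPα among the 3 inhibin subunit genes (below). These matches describe the letters of a short window only.

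Within the 9 genes tested, 3 fell in the C/EBPα knockout (Igfbp2, Inhbe and Fetub) and none rose, where 3.75% of all genes tested were called, 2.86% lower and 0.883% higher. In the HNF4α knockout 3 fell (Inhbe, Inhbc and Inhba) and none rose, where 4.70% of all genes were called, 3.17% lower and 1.54% higher. Inhbe was the gene that fell in both knockouts, as did 1.47% of all genes tested. The median log2 change of the 9 genes was -3.43 in the C/EBPα knockout and -2.00 in the HNF4α knockout, beside 0.03 and 0.02 over all genes. By order of libraries alone, 4 of the 9 (Igfbp2, Inhbe, Ahsg and Fetub) had every C/EBPα knockout library below every WT library and none had them all above, where 10.3% of all genes lay below and 8.54% above. In the HNF4α knockout 5 lay below (Igfbp2, Inhbe, Inhbc, Inhba and Fetub) and 2 above (Fst and Ahsg), where 22.4% and 22.1% of all genes did so. Where libraries were instead scaled to equal totals, the median of all genes moved to 0.53 in the C/EBPα knockout and to 0.57 between the knockouts, and 40.6% of all C/EBPα knockout calls were lower, against 76.4% with the deposited scaling (21.1% against 53.6% between the knockouts). The 3 falls in each knockout were also called on that scale. In bulk liver, fewer hepatocytes and less RNA per hepatocyte cannot be told apart. The summed level of the hepatocyte markers above, led by Alb, was lower in both knockouts, but single markers were not alike. Of the 9 hepatocyte markers, Cps1 and Tat were called lower in the C/EBPα knockout and Apob in the HNF4α knockout. Between the knockouts, Cps1 and Tat were called lower and Apob higher in the C/EBPα knockout than in the HNF4α knockout. Whether lower hepatocyte content plays a part in the falls below was not tested.

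**Figure D1:**
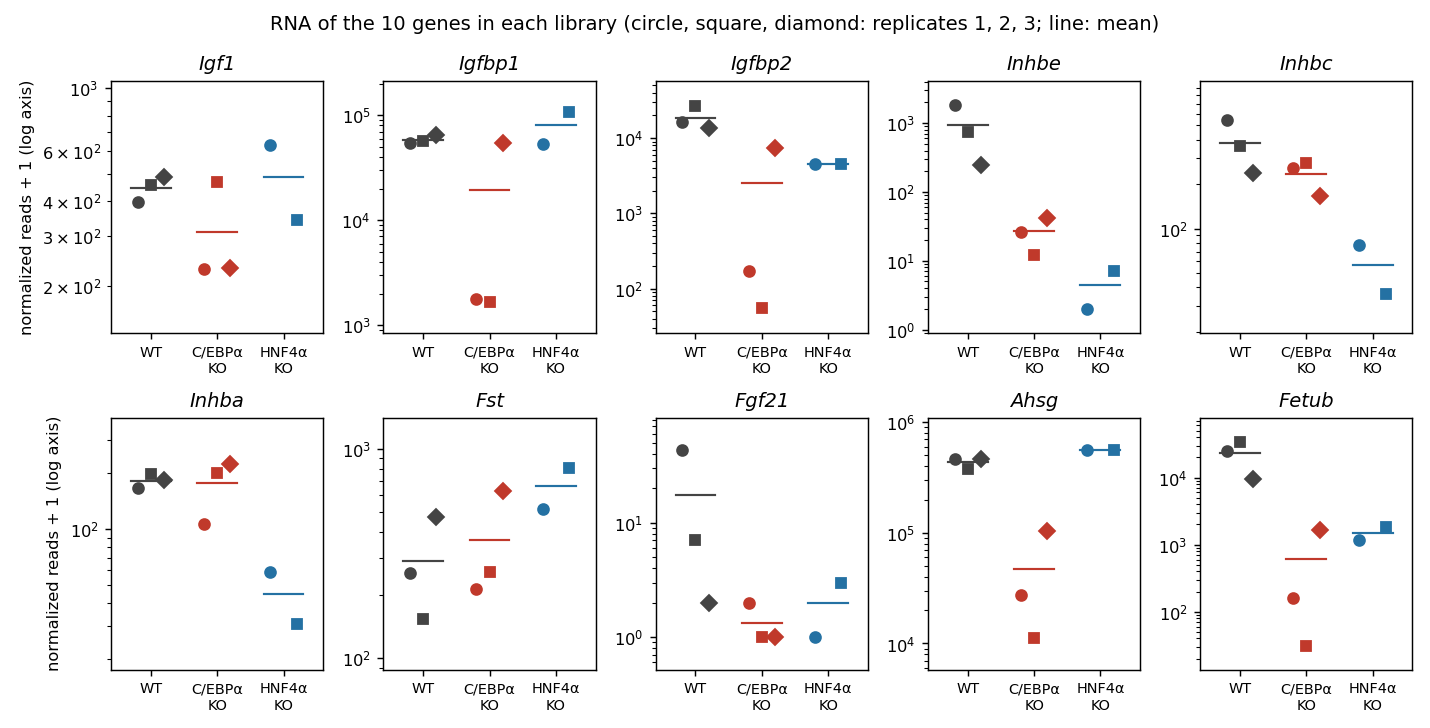
Normalized reads plus 1 (log axis, its range set for each gene) of the 10 genes in each of the 8 libraries, in 3 WT, 3 C/EBPα knockout (red) and 2 HNF4α knockout (blue) livers, with the group mean as a line. Igfbp1 in C/EBPα knockout replicate 3 (diamond, 54292) sits beside WT and away from 1774 and 1659, and Ahsg in both HNF4α knockout libraries sits above all WT libraries.

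Igf1 itself, the growth factor, did not pass the test in either knockout. WT libraries had 396, 453 and 486 normalized reads, C/EBPα knockout libraries 229, 467 and 231, and HNF4α knockout libraries 630 and 341, and all groups overlapped. The log2 difference from WT was -0.60 ± 0.39 (SE, adjusted p = 0.560) for C/EBPα and 0.06 ± 0.43 (adjusted p = 0.948) for HNF4α. The higher HNF4α knockout value, 630, came from the library with muscle RNA. Without that library the HNF4α difference was -0.38, of the opposite sign.

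IGFBP2 is an abundant IGF binding protein of the fetal liver. WT libraries had 16407, 26310 and 13550 reads of Igfbp2, C/EBPα knockout libraries 169, 55 and 7446, and HNF4α knockout libraries 4464 and 4568. Every knockout library of both genotypes lay below every WT library, and C/EBPα knockout replicate 3 lay between the other libraries of its group and WT. In the C/EBPα knockout it fell 43.5-fold (log2 -5.44 ± 1.33, adjusted p = 0.0466). That fold compares means of log2 values. The mean of the reads, to which replicate 3 adds most, was 13.6% of the WT mean. Without C/EBPα knockout replicate 3 the difference was -7.53 (adjusted p = 3.06e-05). Leaving out any one of the other 7 libraries, testing genes without the filter on low values or fitting the 2 groups alone moved the adjusted p above the threshold, to at most 0.166. In the HNF4α knockout Igfbp2 was at 24.1% of the WT mean, with replicates that differed little (4516.0 ± 73.5, SD, n = 2), and did not pass (log2 -2.00 ± 1.48, adjusted p = 0.469). The spread used in that test is shared with the C/EBPα knockout libraries: without C/EBPα knockout replicate 3 the same difference had adjusted p = 0.0345.

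IGFBP1 responds to fasting and insulin within hours. WT libraries had 54220, 57104 and 64250 reads of Igfbp1, C/EBPα knockout libraries 1774, 1659 and 54292, and HNF4α knockout libraries 53705 and 107453. C/EBPα knockout replicates 1 and 2 were far below WT, while replicate 3 was inside the WT range. The log2 difference was -3.43 ± 1.10 (adjusted p = 0.142) with all 3 libraries and -5.09 (adjusted p = 0.000173) without replicate 3. The HNF4α difference was 0.38 ± 1.23 (adjusted p = 0.884). It became 0.88 without HNF4α knockout replicate 1, the library with muscle RNA, and -0.12 without HNF4α knockout replicate 2.

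Of 24 genes listed for the growth hormone and IGF axis, all were tested. Apart from the 3 described above, none passed in the C/EBPα knockout, and 2 receptors fell in the HNF4α knockout, where 3.17% of all genes fell. Ghr, the growth hormone receptor, went from 1295, 1009 and 1629 in WT to 447 and 384 in the HNF4α knockout (log2 -1.63 ± 0.40, adjusted p = 0.0408), and in the C/EBPα knockout it was at 638, 629 and 327 (log2 -1.34, adjusted p = 0.0685). Insr, the insulin receptor, went from 2019, 1552 and 2165 in WT to 386 and 598 in the HNF4α knockout (log2 -1.98 ± 0.44, adjusted p = 0.0283). All knockout libraries lay below all WT libraries for both receptors. That order was seen in 10.3% of all genes in the C/EBPα knockout and in 22.4% in the HNF4α knockout. Both receptors are named because they were called lower, so this order is no separate evidence. Both calls depend on single libraries: the Ghr call was lost in 11 of 16 alternative analyses, among them leaving out any library except C/EBPα knockout replicates 2 and 3, and the Insr call in 6, among them leaving out WT replicate 1, WT replicate 3 or either HNF4α knockout library. The median log2 change of the 24 genes was -0.61 in the C/EBPα knockout and 0.05 in the HNF4α knockout.

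**Figure D2:**
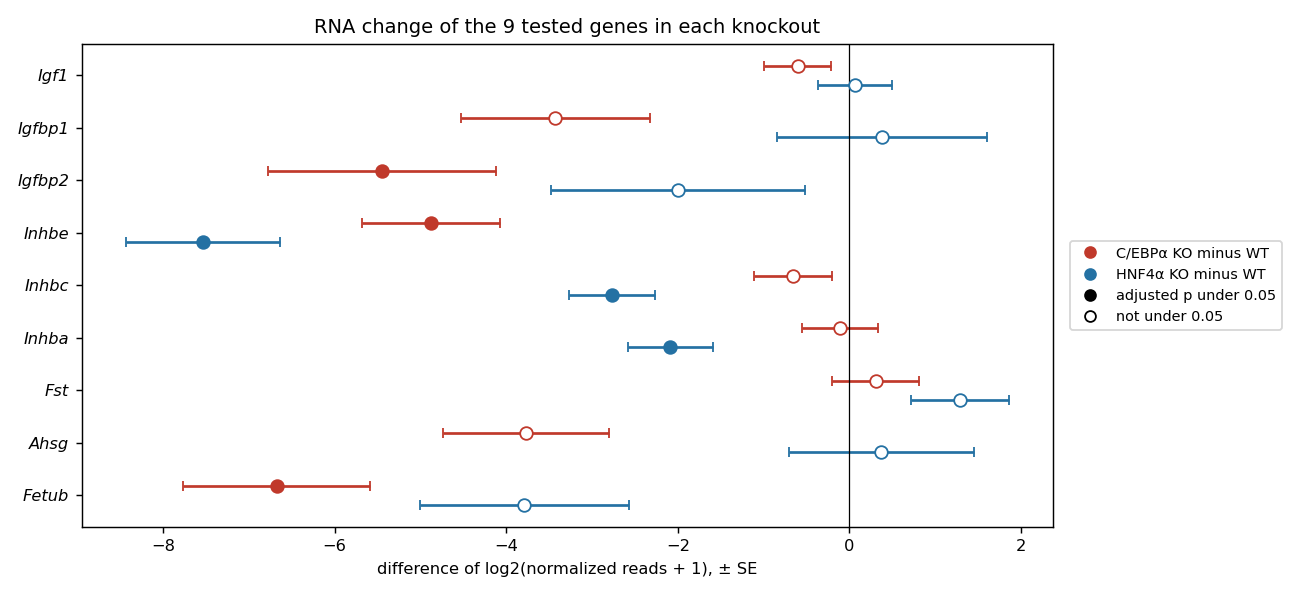
Difference of log2(normalized reads + 1) from WT with its standard error for the 9 tested genes, in the C/EBPα knockout (red, 3 libraries) and the HNF4α knockout (blue, 2 libraries) against 3 WT libraries, with filled points for adjusted p under 0.05. Inhbe is filled in both, Igfbp2 and Fetub in the C/EBPα knockout and Inhbc and Inhba in the HNF4α knockout.

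Among the activin subunits, Inhbe lost most of its RNA in both knockouts. WT libraries had 1822, 739 and 246 reads, C/EBPα knockout libraries 25, 11 and 41, and HNF4α knockout libraries 1 and 6. The groups did not overlap, and both HNF4α knockout libraries lay below all C/EBPα knockout libraries. The fall was 29.4-fold in the C/EBPα knockout (log2 -4.88 ± 0.80, adjusted p = 0.00553) and, on the scale with 1 added to each value, 185-fold in the HNF4α knockout (log2 -7.53 ± 0.90, adjusted p = 0.000912). Near 0 the size depends on that added number: with 10 added, the log2 changes were -4.40 and -5.73. Both calls held in all 16 alternative analyses. The difference between the knockouts did not pass (log2 2.66 ± 0.90, adjusted p = 0.143).

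Inhbc and Inhba fell in the HNF4α knockout. Inhbc was at 544, 361 and 237 in WT, 255, 278 and 166 in the C/EBPα knockout and 77 and 35 in the HNF4α knockout, so that the C/EBPα knockout overlapped WT and the HNF4α knockout lay below both. The HNF4α difference was log2 -2.77 ± 0.51 (6.81-fold, adjusted p = 0.0101), lost without WT replicate 1 (adjusted p = 0.0598) or without HNF4α knockout replicate 2 (adjusted p = 0.0905), and the C/EBPα difference was -0.66 ± 0.45 (adjusted p = 0.594). Inhba, the activin A subunit, gave the same order, at 165, 196 and 182 in WT, 105, 198 and 223 in the C/EBPα knockout and 58 and 30 in the HNF4α knockout. It fell 4.25-fold in the HNF4α knockout (log2 -2.09 ± 0.50, adjusted p = 0.0375), a call lost in 8 of 16 alternative analyses, among them leaving out any WT or HNF4α knockout library, with adjusted p up to 0.21. In the C/EBPα knockout it was at 96.9% of the WT mean (log2 -0.11 ± 0.44, adjusted p = 0.951), and at log2 0.39 where libraries were scaled to equal totals.

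The knockouts were also compared directly, which tests whether the response differed between them. Of the 9 genes, 1 was called in this contrast, where 3.48% of all genes were called, 1.61% higher and 1.87% lower: Inhbc was 4.31-fold higher in the C/EBPα knockout than in the HNF4α knockout (log2 2.11 ± 0.51, adjusted p = 0.0471). This call was lost in 11 of 16 alternative analyses, among them leaving out any library except C/EBPα knockout replicate 3, with adjusted p up to 0.257. Inhba differed in the same direction (log2 1.97 ± 0.50, adjusted p = 0.0565). For all 3 subunits every C/EBPα knockout library lay above both HNF4α knockout libraries, an order seen in 17.4% of all genes tested.

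The subunit genes did not all move one way. Inhbb, the beta B subunit and no member of the chosen group, rose in the HNF4α knockout, from 68, 64 and 86 in WT to 504 and 401 (log2 2.62 ± 0.47, adjusted p = 0.00916), while it was at 27, 41 and 47 in the C/EBPα knockout. The Inhbb difference between the knockouts passed as well (log2 -3.55 ± 0.47, adjusted p = 0.00296). Fst, the extracellular trap of activins, was at 253, 152 and 468 in WT, 213, 256 and 626 in the C/EBPα knockout and 513 and 806 in the HNF4α knockout. Both HNF4α knockout libraries exceeded all WT libraries, but the difference did not pass (log2 1.29 ± 0.57, adjusted p = 0.227). Fstl3, a second activin-binding protein of the follistatin family, rose in the HNF4α knockout, from 43, 59 and 48 to 290 and 266 (log2 2.46 ± 0.57, adjusted p = 0.0348).

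Both rises lean on few libraries. The Inhbb call against WT was lost without HNF4α knockout replicate 1 or without replicate 2 (adjusted p up to 0.152), and the one between the knockouts without HNF4α knockout replicate 1 (adjusted p = 0.0631). The Fstl3 call was lost in 8 of 16 alternative analyses, among them leaving out any WT or HNF4α knockout library (adjusted p up to 0.29). Of 19 tested genes of the activin and inhibin axis, 2 rose and 3 fell in the HNF4α knockout, where 1.54% of all genes rose and 3.17% fell. The 3 that fell were Inhbe, Inhbc and Inhba, and none of the 15 tested genes outside the chosen group fell. In the C/EBPα knockout none rose and 1, Inhbe, fell, where 0.883% of all genes rose and 2.86% fell. The receptors Acvr1, Acvr1b, Acvr2a and Acvr2b and the signal carriers Smad2, Smad3 and Smad4 passed in neither knockout. Markers of stellate cells and fibroblasts were higher in the same livers: 4 of 11 (Col1a1, Ngfr, Acta2 and Col1a2) were called higher in the HNF4α knockout, where 1.54% of all genes were. The 11 markers summed to 98761 in HNF4α knockout replicate 1, the library with muscle RNA, and to 41566 in replicate 2. Sums were 13761 to 21041 in WT and 14516 to 24530 in the C/EBPα knockout, with none of the 11 at 0 in all libraries. Whether tissue that came with the muscle RNA adds to the sum of replicate 1 was not tested. Of 10 macrophage markers, Cd68 was called higher, with sums of 32002 to 37868 against 15990 to 18784 in WT. The neutrophil, erythroid and endothelial sums given above were also higher in both HNF4α knockout libraries than in any WT library. The part of all these cells in the Inhbb, Fstl3 and Fst values was not tested.

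FGF21 was scarcely measured. Fgf21 was at 42, 6 and 1 in WT, was listed at 1, 0 and 0 in the C/EBPα knockout and at 0 and 2 in the HNF4α knockout. A single library, WT replicate 1, reached 10, so the gene was not tested and no fold is given. Of the 11 tested genes of the endocrine FGF axis, Nr1h4 fell in both knockouts, as did 1.47% of all genes tested. Nr1h4 encodes FXR, the bile acid receptor, and was at 1343, 1285 and 895 in WT, 133, 100 and 140 in the C/EBPα knockout and 93 and 166 in the HNF4α knockout (log2 -3.22 ± 0.36, adjusted p = 0.000476, and -3.21 ± 0.40, adjusted p = 0.00124). Ppara, the receptor through which fasting induces Fgf21, was at 1053, 457 and 1874 in WT and fell to 90 and 140 in the HNF4α knockout (log2 -3.09 ± 0.69, adjusted p = 0.0275). That call was lost in 6 of 16 alternative analyses, among them leaving out WT replicate 1, WT replicate 3 or either HNF4α knockout library. Klb, the FGF21 co-receptor beta-klotho, passed in neither knockout. Kl, its relative alpha-klotho, rose in the C/EBPα knockout from 7, 2 and 36 to 375, 184 and 281 (log2 4.81 ± 0.81, adjusted p = 0.0064) and was at 16 and 18 in the HNF4α knockout. Bile duct markers rose in the same livers: 4 of 8 tested (Prom1, Cldn7, Spp1 and Sox9) were called higher in the C/EBPα knockout, where 0.883% of all genes were. The bile duct markers summed to 9182 to 11375 there, against 1559 to 3027 in WT. Their part in the Kl value was not tested.

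The 2 fetuin genes, whose starts lie 26.3 kb apart on chromosome 16, had unlike values in the livers without HNF4α, though a difference between the genes was not tested. For Fetub, WT libraries had 25313, 34401 and 9698 reads, C/EBPα knockout libraries 157, 30 and 1626, and HNF4α knockout libraries 1180 and 1841. All knockout libraries lay below all WT libraries. The gene fell 102-fold in the C/EBPα knockout (log2 -6.67 ± 1.09, adjusted p = 0.00531), a call held in all 16 alternative analyses. That fold compares means of log2 values, while the mean of the Fetub reads there, to which replicate 3 adds most, was 2.61% of the WT mean. In the HNF4α knockout it was at 6.53% of the WT mean, a difference that with all libraries missed the threshold (log2 -3.79 ± 1.22, adjusted p = 0.108). It passed in 4 of the 16 alternatives, among them the fit of these 2 groups alone (adjusted p = 0.00298) and those without C/EBPα knockout replicate 2 (adjusted p = 0.0272) and replicate 3 (adjusted p = 0.0105).

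Ahsg, one of the most abundant liver messages, had 464801, 378361 and 460374 reads in WT libraries, 27381, 11268 and 103932 in C/EBPα knockout libraries, and 563732 and 555541 in HNF4α knockout libraries. The C/EBPα knockout lay below WT in every library and the HNF4α knockout above it in every library. The C/EBPα difference, to 10.9% of the WT mean, just missed the threshold (log2 -3.77 ± 0.97, adjusted p = 0.0601) and passed without C/EBPα knockout replicate 3 (log2 -4.62, adjusted p = 0.0134). The HNF4α difference was small and did not pass (log2 0.37 ± 1.08, adjusted p = 0.871). The difference between the knockouts, log2 -4.14 ± 1.08, had adjusted p = 0.0645. Within each library, Fetub RNA was 5.45%, 9.09% and 2.11% of Ahsg RNA in WT, 0.573%, 0.266% and 1.56% in the C/EBPα knockout, and 0.209% and 0.331% in the HNF4α knockout. The 5 knockout ratios were all below the 3 WT ratios, and how often other gene pairs show such an order was not computed.

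Ahsg and Fetub are the first genes of a run of 5 cystatin superfamily genes within 190 kb of chromosome 16, followed by Hrg (histidine-rich glycoprotein), Kng2 and Kng1 (kininogens, the source of bradykinin). In the C/EBPα knockout these 5 genes were at 10.9%, 2.61%, 2.11%, 5.70% and 8.28% of their WT means, in this order, and all but Ahsg passed. In the HNF4α knockout they were at 129%, 6.53%, 5.75%, 17.0% and 19.1%, and Hrg passed. Hrg was at 6192, 8184 and 9002 in WT, 176, 81 and 237 in the C/EBPα knockout and 405 and 491 in the HNF4α knockout (log2 -5.67 ± 0.40, adjusted p = 2.75e-05, and -4.11 ± 0.45, adjusted p = 0.000621). Ahsg was thus the one gene of the run that was not below its WT range in the livers without HNF4α. The remaining tested genes of the superfamily list, Cstb, Cst3 and Csta, which are made in many tissues, passed in neither knockout. Over the 8 tested genes of this list, 4 fell and none rose in the C/EBPα knockout, and 1 fell and none rose in the HNF4α knockout. Of all genes tested, 2.86% fell and 0.883% rose in the former, and 3.17% fell and 1.54% rose in the latter.

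A wider list of 20 tested liver-secreted hormones and factors gave a setting for these genes. In the C/EBPα knockout none rose, and those that fell included Enho (adropin, log2 -3.43 ± 0.76, adjusted p = 0.0293) and Fgl1 (log2 -2.85 ± 0.63, adjusted p = 0.0305). Of all genes tested, 0.883% rose and 2.86% fell there. In the HNF4α knockout 4 rose and 1 fell, where 1.54% of all genes rose and 3.17% fell. Hamp, the iron hormone hepcidin, rose most, from 8, 72 and 46 to 1924 and 2780 (log2 6.21 ± 0.99, adjusted p = 0.00454), and Angptl4 fell from 2030, 1606 and 1801 to 448 and 328 (log2 -2.23 ± 0.43, adjusted p = 0.0134). The others that rose were Epo (erythropoietin), Angptl6 and Tgfb1, with adjusted p of 0.0371 to 0.0448, each lost in 8 to 10 of 16 alternative analyses, among them leaving out either HNF4α knockout library. The Enho and Fgl1 calls were each lost in 6 alternatives.

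By likeness of profile, the genes nearest to each member that was called were found by Pearson's r of log2 values over the 8 libraries, as a description with no test, since the libraries share their groups. Igfbp2 was most like Cyp27a1 (r = 0.994), Apof (0.992) and Slc45a3 (0.985). Fetub was most like Qsox1 (0.989), Eif4ebp3 (0.988) and 6330416G13Rik (0.987), and Inhbe was most like Metap1d (0.993), Sdr42e1 (0.986) and D730039F16Rik (0.983). Inhbc was nearest to Nipsnap1 (0.976), Igtp (0.976) and Trp53bp2 (0.974). Inhba was nearest to Rhbg (0.981), Cbr4 (0.981) and Gal3st1 (0.972). None of the 10 genes was among these nearest genes of another.

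Binding was read as regions where merged peaks held a peak of both replicates. A gene was called bound where such a region lay within 5 kb of its start, the 5' end of the deposited gene model. C/EBPα was within 5 kb of 5, 9, 9, 8 and 8 of the 10 genes at E15.5, E18.5, P0.5, P14 and P60, where 13.9%, 53.0%, 67.4%, 39.8% and 40.1% of the 17771 tested genes were bound. HNF4α was within 5 kb of 8, 5, 8, 9 and 9, where 38.3%, 12.8%, 32.7%, 31.0% and 40.1% of genes were bound. The lists differ in length between stages, from 10419 to 94619 C/EBPα regions and from 18359 to 36322 HNF4α regions, so the background moves with the stage. The 2 HNF4α lists of P0.5 hold the same peaks and count as 1 library. At E18.5 the HNF4α regions shared by both replicates came to 44.6% of the shorter list, against 77.4% to 92.7% for the other pairs, so that a gap of HNF4α at E18.5 says little. The score of every peak was 0 in the files, and no peak height is compared.

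**Figure D3:**
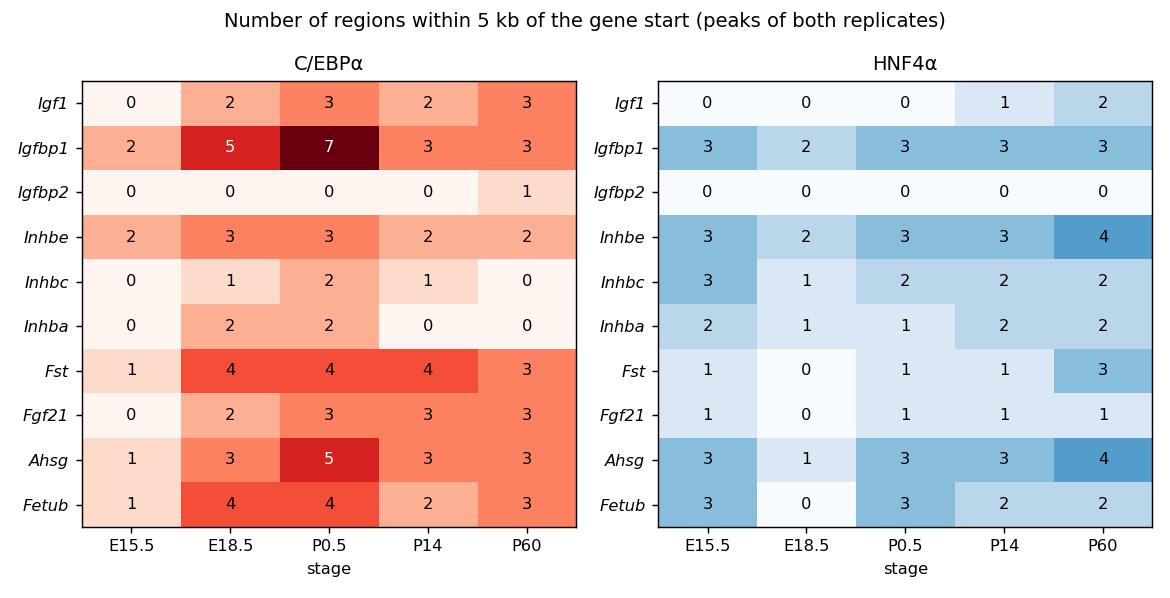
Number of regions within 5 kb of each gene start with peaks of both replicates, for C/EBPα (left) and HNF4α (right) at 5 stages. Igfbp1, Inhbe, Fst, Ahsg and Fetub have C/EBPα regions at all 5 stages, and Igfbp1, Inhbe, Inhbc, Inhba and Ahsg have HNF4α regions at all 5, while Igfbp2 has a single C/EBPα region at P60 and no HNF4α region.

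C/EBPα was present within 5 kb at all 5 stages at Igfbp1, Inhbe, Fst, Ahsg and Fetub, a pattern of 12.5% of genes. HNF4α was present at all 5 at Igfbp1, Inhbe, Inhbc, Inhba and Ahsg, a pattern of 10.1%. Igfbp1, Inhbe and Ahsg were in both sets. Merged over stages and factors, the 10 genes and the 5 kb on either side of their starts held 56 separate loci. Of these, 34 held regions of both factors, 17 of C/EBPα alone and 5 of HNF4α alone. Both factors at a locus need not share a stage, and the matching shares over all genes were not computed. Loci with both factors at all 5 stages numbered 3, and they lay at Ahsg, Inhbe and Igfbp1.

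At Ahsg that locus covered the gene start itself (chr16:22890942-22892740, mm9; the gene is at chr16:22892115-22899511). It was the only one of the 3 over a start. At E15.5, 3.11% of genes had C/EBPα over the start and 11.9% had HNF4α. Flanking it, HNF4α held a locus 3.1 kb upstream (chr16:22887862-22890090) at E15.5, P0.5, P14 and P60. At Fetub (chr16:22918455-22939839) no region of either factor covered the start. C/EBPα held a locus 2.0 kb inside the gene (chr16:22919678-22921245) at all 5 stages, with HNF4α there at E15.5, P0.5, P14 and P60, and a locus at 4.3 kb (chr16:22922173-22923242) from E18.5 on. A factor's peaks were therefore present near both fetuin genes before birth and after it, on the start in one and inside the gene in the other.

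At Igfbp1 (chr11:7097785-7102549) both factors held a locus 4.9 kb upstream (chr11:7092262-7093475) at all 5 stages. C/EBPα also held one 2.8 kb upstream (chr11:7094158-7095868) at all 5, which HNF4α held at all but E18.5. Over the start (chr11:7096280-7099045), HNF4α was present at all 5 stages and C/EBPα at E18.5 and P0.5, the stages with the longest C/EBPα lists. Igfbp1 had more C/EBPα regions within 5 kb at P0.5, 7, than any other of the 10 genes at any stage.

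At Inhbe (chr10:126786458-126788828, minus strand) both factors held a locus 3.8 kb upstream at all 5 stages (chr10:126791986-126793242). It lies in the 4.6 kb between Inhbe and the 3' end of Inhbc. A second locus, merged over stages, reached the Inhbe start (chr10:126788426-126790628), with C/EBPα at all 5 stages and HNF4α at all but P0.5. The start itself lay inside a C/EBPα region at P0.5, P14 and P60 and inside an HNF4α region at P14 and P60. Inhbc (chr10:126793384-126807600, minus strand) had HNF4α 2.2 kb inside the gene at all 5 stages (chr10:126804674-126806047) and C/EBPα there at E18.5, P0.5 and P14. The locus over the Inhbc start (chr10:126806313-126808319) held HNF4α at all stages but E18.5 and C/EBPα at P0.5 alone. No C/EBPα region covered the start itself, the nearest being 366 bp away, at P0.5. Inhba (chr13:16103684-16119044) had HNF4α 3.0 kb upstream at all 5 stages (chr13:16099829-16101616) and C/EBPα there at E18.5 and P0.5. A locus that reached the Inhba start (chr13:16103559-16104575) held HNF4α at E15.5, P14 and P60 and C/EBPα at no stage. The start itself was covered at P14 alone, with the HNF4α region 361 bp away at E15.5 and 94 bp away at P60.

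Side by side, the 3 inhibin subunit genes thus all had HNF4α within 5 kb at every stage. C/EBPα was there at every stage at Inhbe, at 3 stages at Inhbc (4.43% of genes have that pattern) and at 2 stages at Inhba (10.5%). These stage counts rest on regions with peaks of both replicates. In the C/EBPα list of replicate 2 alone, all 10 genes had a peak within 5 kb at P14 and at P60. In that list 46.8% and 58% of all genes did so. Inhbe was the subunit that fell in both knockouts, and Inhbc and Inhba those that passed in the HNF4α knockout alone. The binding and the RNA come from separate animals, 3 genes give no test of a relation, and Igfbp2, which fell in the C/EBPα knockout, had little binding near its start. As a ratio within each library, Inhbe RNA was 335%, 205% and 104% of Inhbc RNA in WT. It was 9.80%, 3.96% and 24.7% in the C/EBPα knockout, and 1.30% and 17.1% in the HNF4α knockout. Every knockout ratio was below every WT ratio, and how often other gene pairs show such an order was not computed.

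**Figure D4:**
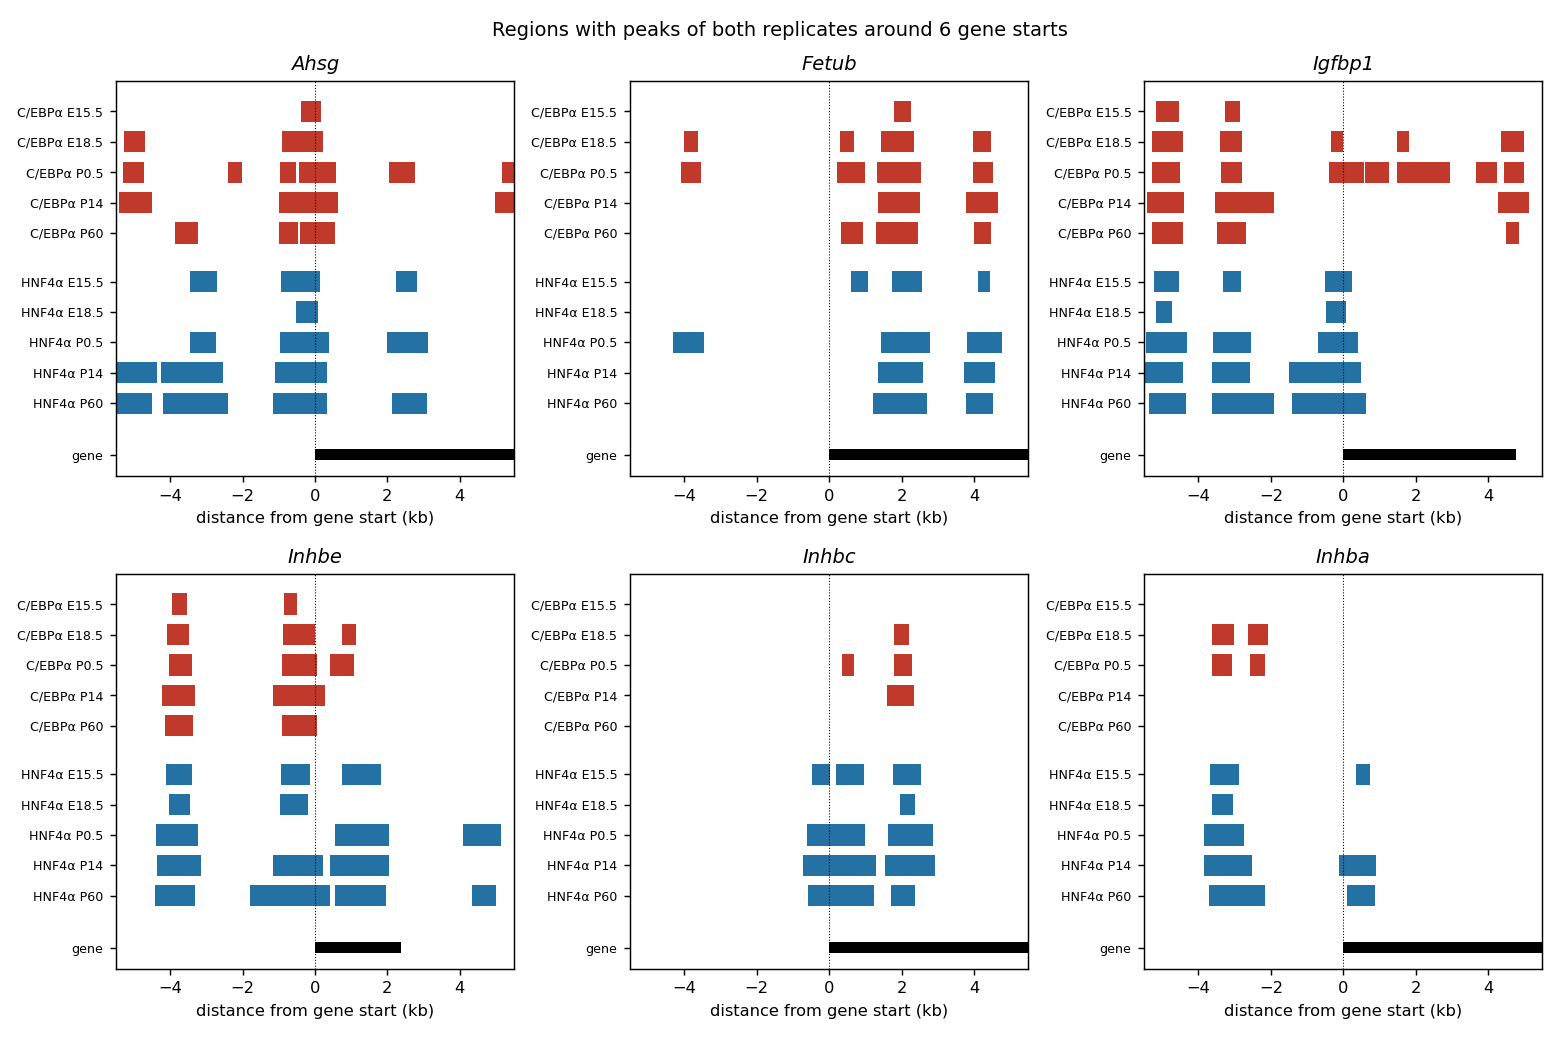
Regions with peaks of both replicates around 6 gene starts, by distance from the start in kb (the direction of transcription runs to the right), for C/EBPα (red) and HNF4α (blue) at 5 stages, with the gene in black. Ahsg is covered at its start by both factors at all 5 stages, Fetub has its constant locus about 2.0 kb inside the gene, and Inhba has C/EBPα at E18.5 and P0.5 only.

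Igfbp2 (chr1:72871077-72899048) lost RNA in the C/EBPα knockout with little binding at its start. Within 5 kb it had 1 C/EBPα region, at P60, 1.5 kb inside the gene, and no HNF4α region at any stage, where 46.8% of genes also had none. Lists of replicate 2 alone had C/EBPα within 5 kb of all 10 genes at P0.5, P14 and P60 (73%, 46.8% and 58% of all genes). At P60 such a list of HNF4α also had all 10 genes (51.1%), Igfbp2 among them. Farther inside the gene, C/EBPα held loci at 12.9 kb (chr1:72883548-72884430) and 18.5 kb (chr1:72888869-72890269) from E18.5 to P60, and HNF4α held the latter at P0.5, P14 and P60. The nearest HNF4α region at every stage was 13617 to 14751 bp from the start, and it was the same upstream locus each time, which C/EBPα also held from E18.5 on. Fst (chr13:115242470-115249159, minus strand) had C/EBPα 1.7 kb inside the gene at all 5 stages and HNF4α there at P60, while a locus 4.0 kb upstream (chr13:115252581-115253778) held both factors at most stages. Fgf21 (chr7:52869277-52870860, minus strand) had C/EBPα over its start (chr7:52870591-52871315) at P14 and P60, and 6 bp from it at P0.5. HNF4α was absent from that locus and present 4.4 kb beyond the start, past the 3' end of the gene (chr7:52865677-52867185), at E15.5, P0.5, P14 and P60. The Fut1 start lies 2116 bp upstream of Fgf21, the one other gene start within 5 kb of any of the 10, so these peaks cannot be assigned to either gene.

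At Igf1 (chr10:87321010-87399792) the number of called regions grew more from E15.5 to P60 than at nearly any other gene. From 5 kb upstream to the gene end it held 0, 11, 13, 10 and 15 C/EBPα regions at E15.5, E18.5, P0.5, P14 and P60, and 1, 3, 3, 9 and 12 HNF4α regions. A gain from E15.5 to P60 as large as its 15 C/EBPα regions was found in 84 of 17771 genes (0.473%), and one as large as its 11 HNF4α regions in 22 (0.124%). Igf1 is a long gene, of 78783 bp, and long genes can hold more regions. The C/EBPα list also grew, from 10419 regions at E15.5 to 65021 at E18.5 and 44217 at P60. HNF4α had 35764 regions at E15.5 and 36322 at P60. Neither gene length nor list length was taken into account in these shares. Within 5 kb of the start, HNF4α was present at P14 and P60 only, a pattern of 2.14% of genes, and C/EBPα at all stages from E18.5 on (19.0% of genes).

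Merged over stages, Igf1 held 18 loci. All 18 held C/EBPα at some stage and 11 of them also HNF4α. None held C/EBPα at E15.5, where the nearest C/EBPα region was 182817 bp from the start, and 7 held it at all 4 later stages. HNF4α was at a single locus at all 5 stages, 57.7 kb into the gene (chr10:87378166-87379248), where C/EBPα was found from E18.5 on. At 7 loci HNF4α was found at P14 or P60 only. C/EBPα was already present at E18.5 or P0.5 at 5 of these 7, among them the locus that reached the start (chr10:87320079-87321193), where the HNF4α region at P60 ended 11 bp short of the start itself, and the one at 68.2 kb (chr10:87388118-87390372). A peak in any single HNF4α list at E15.5, E18.5 or P0.5 was found at 1 of the 7, and at the other 6 no single list of these stages held one. The C/EBPα lists at E18.5 and P0.5 are also the longest of all, and the order of the factors at a locus and the lengths of the lists cannot be told apart. The RNA libraries hold no series of stages, and whether Igf1 RNA rose as these regions appeared was not measured in the files used here.

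**Figure D5:**
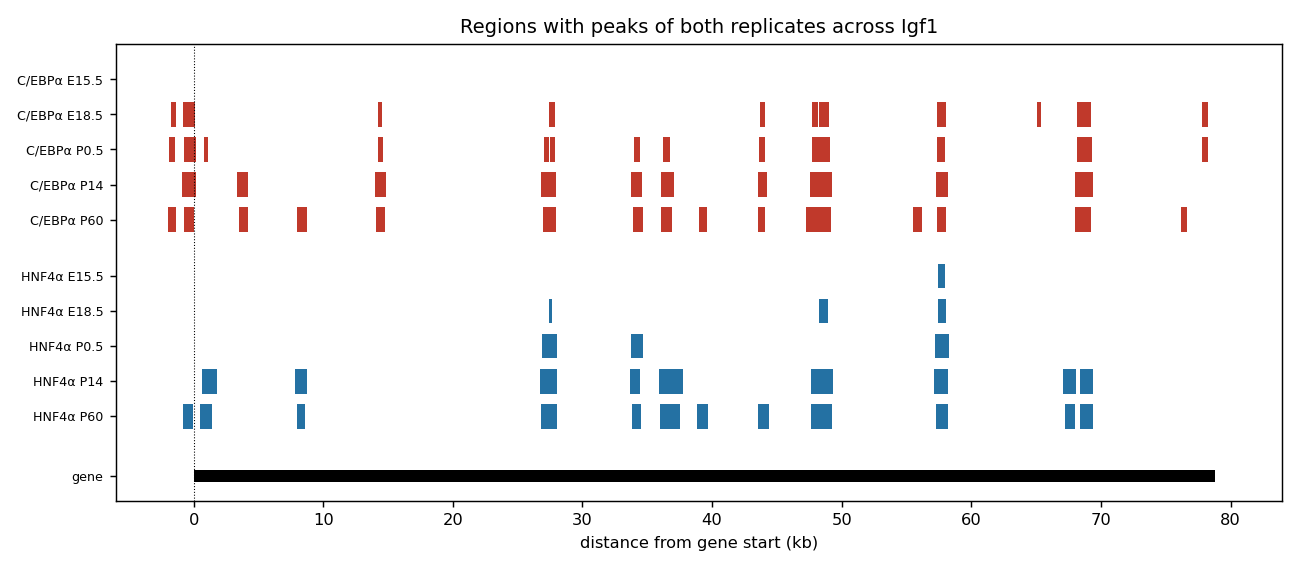
Regions with peaks of both replicates across Igf1, by distance from the gene start in kb, for C/EBPα (red) and HNF4α (blue) at 5 stages, with the gene in black. C/EBPα is absent at E15.5 and at 11 or more regions at E18.5, P0.5 and P60, and HNF4α goes from 1 region at E15.5 to 12 at P60, with one locus at 57.7 kb at every stage.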

How the data were processed

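RNA values are those the authors deposited in one table of 37583 genes: a score per gene that the table names DESeq-normalized, whole numbers after rounding, and so not counts. The 8 files per sample held the same values. Totals were 13.4 to 26.0 M normalized reads per library. Per the submitters' processing notes, the tools were bcl2fastq, FastQC, BWA, TopHat2, Cufflinks, bedtools, DESeq and MACS 1.4, with build mm9. Peaks are positions only; their deposited score was 0 throughout. Genes with at least 10 in at least 2 libraries were analysed as log2(value + 1), which understates changes of low genes, with limma 3.58.1 (variance trend, R 4.3.3). All 8 libraries entered 1 fit, and 2-sided p-values were Benjamini-Hochberg adjusted over 17771 genes, with 0.05 as the threshold. A test of counts was not used because the values are normalized. The fit was tested on simulated data.

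Regions were merged from peaks of both replicates overlapping by at least 1 bp, with Python 3.11.15. The 20 lists gave 19 distinct ones. The 10 genes and all lists of pathway and marker genes were chosen with earlier results of these data known. Named genes were the 10, Cebpa and Hnf4a, up to 4 called genes per pathway list and contrast with the smallest adjusted p, the most abundant marker per list, and 3 likest genes per called member; other list members are named to complete a list, after their values were seen. Alternatives were another pseudocount (10), no filter, scaling by totals or upper quartiles, the 2 groups alone, array weights, a replicate block and leaving out each library. RNA polymerase II and input samples were not analysed here. A few genes that the rule would name are not reported here.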

Additional observations from a re-analysis of the deposited data

How the results depend on the processing

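Direction and side of the threshold were kept in 366 of 432 recomputed differences of the 9 genes, 30 lost a call, 25 gained one and 11 changed sign. The sign changed for small differences that had not passed: Inhba in the C/EBPα knockout (0.394 with scaling by totals, -0.322 to 0.218 leaving out 1 library), Fst there (-0.056 with array weights, -0.166 without both C/EBPα knockout replicate 3 and HNF4α knockout replicate 1, an analysis chosen after seeing the data, -0.166 to 0.723 leaving out 1), Igf1 in the HNF4α knockout (-0.006 with totals, -0.378 without both, -0.378 to 0.506 leaving out 1) and Igfbp1 there (-0.120 to 0.880 leaving out 1).

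Of the 9 genes, 3 called against WT became 5 with array weights in either knockout, 5 for HNF4α with the 2 groups alone and 5 for C/EBPα without both libraries, and 2 to 5 (C/EBPα, 5 without C/EBPα knockout replicate 3) and 1 to 5 (HNF4α, 1 without WT replicate 1 or HNF4α knockout replicate 2, 5 without C/EBPα knockout replicate 3) leaving out 1. Between the knockouts the 1 call became 0 with a pseudocount of 10, no filter or the 2 groups alone, 2 with totals or without both, 6 with array weights, and 0 to 5 leaving out 1. Over all genes, calls went from 666 to 2711 with array weights and 311 to 804 leaving out 1 (C/EBPα), and from 836 to 1475 with the 2 groups alone, 4322 with array weights, 386 without both and 238 to 1372 leaving out 1 (HNF4α). Between the knockouts they went from 619 to 403 with no filter, 343, 2557, 190 and 88 to 855 for the 2 groups alone, array weights, without both and leaving out 1, in this order. The cause of these shifts was not tested. Replicate numbers did not pair the libraries (correlations of same-numbered deviations from -0.231 to 0.190). With the replicate block, calls over all genes were 486 (HNF4α) and 288 (between the knockouts), and the Inhba call in the HNF4α knockout had adjusted p = 0.123.

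Within 1 kb of the start in place of 5 kb, C/EBPα was found at 2, 5 and 5 of the 10 genes at E15.5, P14 and P60. The shares of all genes tested were 6.92%, 26.8% and 24.9%. HNF4α was found within 1 kb of 3 and 4 at E18.5 and P0.5, beside 6.11% and 22.8% of all genes. For values under about 10 normalized reads, as for Fgf21 and for Inhbe in the HNF4α knockout, the size of a fold change depends on the number added before the log.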
